A study of Rattus norvegicus with 6 samples.

Results

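The transcripts described here encode 4 secreted stress hormones, Gdf15, Stc2, Adm (adrenomedullin) and Fgf21. They were taken by gene symbol from the 2125 genes of the deposited tables, and each symbol matched a single row. RNA sequencing was done on primary cultures of dorsal root ganglion cells from Sprague Dawley rats of 120 g, for which all ganglia were dissociated. The groups were 3 libraries of cultures exposed to lidocaine hydrochloride (5 mM, 24 hours), a sodium channel blocker used for local anaesthesia, and 3 libraries of control cultures without it. Both were grown in B-27 supplemented medium at the same temperature. The labels call the cells neurons and do not tell if replicates came from different cultures or animals, so the p-values speak of the spread among these libraries alone, which may be technical.

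The 4 hormones are released by cells under metabolic, proteotoxic or hypoxic strain and act on other tissues or on neighbouring cells. GDF15 is a distant member of the TGF-beta superfamily that acts through GFRAL and the kinase RET, FGF21 is an endocrine FGF that needs the co-receptor beta-klotho (Klb) beside an FGF receptor, and adrenomedullin is a vasodilator peptide of the calcitonin family that signals through Calcrl paired with Ramp2 or Ramp3. Stanniocalcin 2 is a secreted glycoprotein whose human form binds and inhibits the pappalysins, proteases that cleave IGF-binding proteins. As background from other cell types, Gdf15, Fgf21 and Stc2 are known targets of the ATF4 arm of the integrated stress response, Adm is a known target of hypoxia-inducible factors, and Fgf21 is also known as a target of the fatty acid sensor PPARA in liver.

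The promoter windows of the 4 genes are shown because the transcripts moved in the same direction while differing in size of change. They run from 250 bases before to 50 bases after the annotated start, were taken from RefSeq on GRCr8 and are written on the strand of the gene. Their coordinates do not apply to rn6, the build named in the submitters' processing notes. The windows are chr16:18839015-18839314 (plus strand) for the downstream of the 2 Gdf15 starts in the table, chr10:16755258-16755557 (plus) for Stc2, chr1:174179950-174180249 (plus) for Adm and chr1:105221327-105221626 (minus) for Fgf21. Capitals mark matches, on either strand, to any of 6 motifs described further on.
Gdf15: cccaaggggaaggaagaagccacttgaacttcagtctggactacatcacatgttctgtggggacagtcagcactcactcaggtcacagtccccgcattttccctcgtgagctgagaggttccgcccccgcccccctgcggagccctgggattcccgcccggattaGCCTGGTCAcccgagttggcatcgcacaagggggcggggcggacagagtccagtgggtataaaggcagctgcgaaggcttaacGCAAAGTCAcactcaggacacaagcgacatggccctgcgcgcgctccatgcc
Stc2: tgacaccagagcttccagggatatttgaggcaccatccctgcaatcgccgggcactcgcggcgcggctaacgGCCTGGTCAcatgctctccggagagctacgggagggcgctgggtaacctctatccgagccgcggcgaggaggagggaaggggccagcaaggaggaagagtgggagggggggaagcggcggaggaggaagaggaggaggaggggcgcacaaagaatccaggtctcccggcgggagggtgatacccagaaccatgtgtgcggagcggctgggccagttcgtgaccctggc
Adm: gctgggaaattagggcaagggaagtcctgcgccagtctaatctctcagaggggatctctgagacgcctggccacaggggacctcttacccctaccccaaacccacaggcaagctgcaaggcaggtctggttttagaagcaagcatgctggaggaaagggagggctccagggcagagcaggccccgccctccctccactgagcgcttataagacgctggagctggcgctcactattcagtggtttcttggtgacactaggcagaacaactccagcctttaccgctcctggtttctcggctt
Fgf21: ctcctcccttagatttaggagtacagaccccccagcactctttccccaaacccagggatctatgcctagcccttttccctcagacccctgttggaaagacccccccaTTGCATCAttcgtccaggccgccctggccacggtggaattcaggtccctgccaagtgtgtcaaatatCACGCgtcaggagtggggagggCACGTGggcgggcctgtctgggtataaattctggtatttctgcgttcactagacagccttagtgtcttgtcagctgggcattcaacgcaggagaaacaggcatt

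All 4 transcripts were more abundant in lidocaine cultures, by 12.8-fold for Gdf15, 7.93-fold for Stc2, 3.96-fold for Adm and 2.74-fold for Fgf21. Values are given as normalized reads, the authors' read numbers after scaling between libraries. Gdf15 (ENSRNOG00000019661) had 1353, 1392 and 1362 normalized reads in lidocaine replicates 1, 2 and 3, against 108, 90.0 and 122 in control replicates 1, 2 and 3. The lidocaine libraries lay close together, far above every control library. Its log2 fold change was 3.68 ± 0.12 (SE, n = 3 per group; 95% interval 3.42 to 3.94; adjusted p = 1.59e-09, limma with Benjamini-Hochberg adjustment).

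Stc2 (ENSRNOG00000020729) had 1077, 1078 and 1220.2 normalized reads in the lidocaine libraries, against 161, 108 and 160.4 in the control libraries. The groups did not overlap, and control replicate 2 was well below the other two controls. The log2 fold change was 2.99 ± 0.15 (SE, n = 3 per group; 95% interval 2.64 to 3.33; adjusted p = 3.61e-08, limma with Benjamini-Hochberg adjustment).

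Adm (ENSRNOG00000027030) had 1715, 1629.9 and 2035 normalized reads in the lidocaine libraries, against 482, 416 and 455 in the control libraries. Lidocaine replicate 3 stood above the other two of its group, and the groups did not overlap. The log2 fold change was 1.99 ± 0.10 (SE, n = 3 per group; 95% interval 1.77 to 2.20; adjusted p = 2.39e-08, limma with Benjamini-Hochberg adjustment).

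Fgf21 (ENSRNOG00000020990), the least abundant of the 4, had 125, 137 and 140.5 normalized reads in the lidocaine libraries, against 52.3, 36.7 and 58.1 in the control libraries. The groups did not overlap, although the controls spread widely for their level. The log2 fold change was 1.46 ± 0.21 (SE, n = 3 per group; 95% interval 0.99 to 1.92; adjusted p = 8.80e-05, limma with Benjamini-Hochberg adjustment). These values rested on 125 to 146 recovered reads per lidocaine library and 31 to 60 per control library, so that counting error alone (95%, exact Poisson) allowed 21.1 to 44.0 reads for the 31 of control replicate 2.

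**Figure D1:**
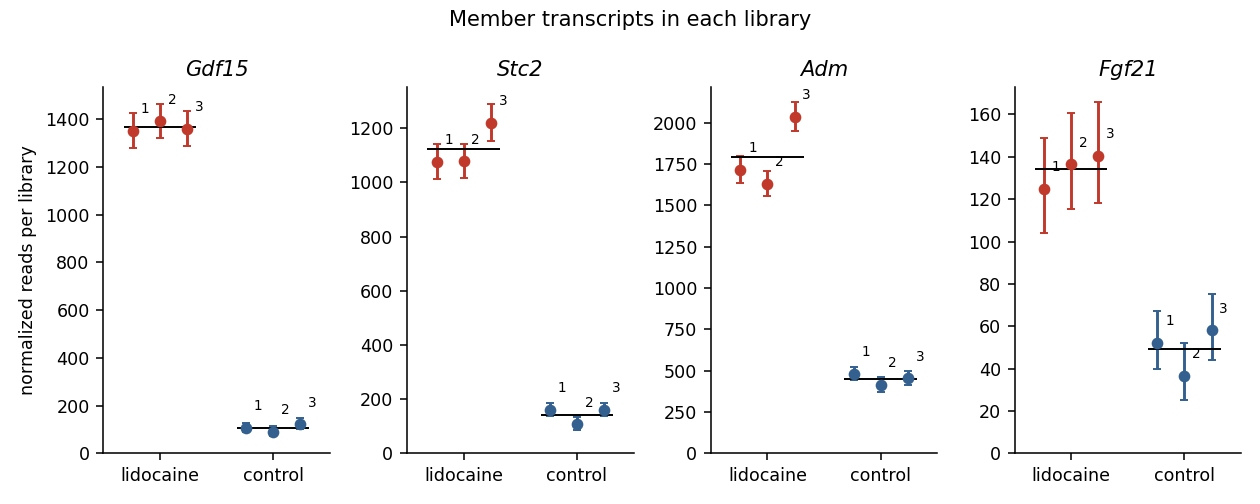
Normalized reads of Gdf15, Stc2, Adm and Fgf21 (vertical axes, each from 0) in the 3 lidocaine and the 3 control libraries, with replicate numbers beside the points. Bars on points are 95% exact Poisson intervals of the recovered reads, which cover counting error only, and horizontal lines are group means; in each panel every lidocaine library lies above every control library, and control replicate 2 is the lowest.

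These calls carry little weight by themselves, because the deposited tables hold only genes that the authors had selected as changed on these same libraries. Of the 1851 genes tested, 99.5% passed the threshold in either direction and 30.9% passed as higher with lidocaine. The groups did not overlap in 98.4% of the genes, and they stood apart with lidocaine higher in 30.8%. For each of the 4 hormones an exact permutation test of 3 against 3 libraries gave p = 0.1 (two-sided), the smallest value that this design allows. In the authors' deposited table the log2 fold changes were the same to 2 decimals, since they were differences of the same group means.

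The sizes of the changes set the hormones apart from each other more than their calls did. Among the 572 genes that rose, whose median log2 fold change was 1.38, Gdf15 ranked 15, Stc2 30, Adm 97 and Fgf21 260. Gdf15 and Stc2 thus lay near the top of the rises and Fgf21 near the middle. Rescaling the libraries by TMM (a trimmed mean of log ratios) on the listed genes shifted log2 fold changes by a median of 1.25. It gave 4.93 for Gdf15, 4.24 for Stc2, 3.24 for Adm and 2.69 for Fgf21, in the same order. Under TMM 44.6% of the calls were lower, against 68.9% with the authors' scaling. TMM, like the median of ratios used further on, assumes that most genes are unchanged. Every listed gene was selected as changed by at least 1 on the log2 scale, so that assumption is not met here. A sign that turns under these scalings therefore cannot decide whether a gene fell.

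**Figure D2:**
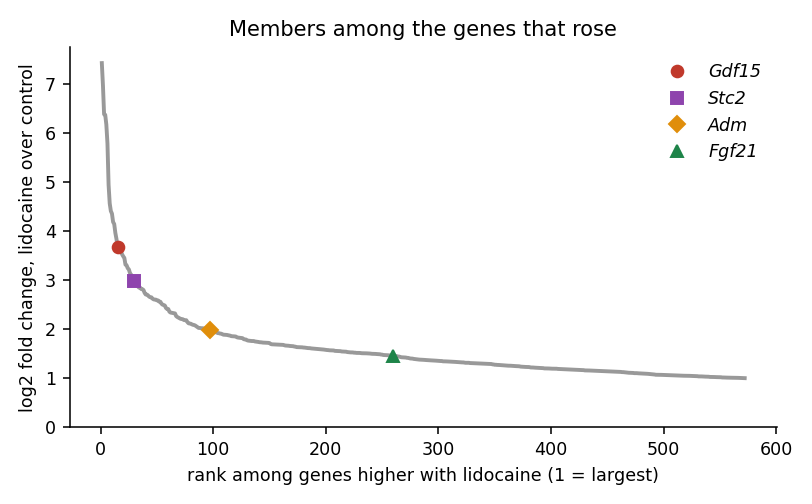
Log2 fold change of lidocaine over control (vertical axis) against rank (horizontal axis, 1 is the largest rise) for the 572 genes that rose, drawn as a grey line, with the 4 hormones marked. Gdf15 at rank 15 and Stc2 at rank 30 lie on the steep part, and Adm at rank 97 and Fgf21 at rank 260 on the flat part.

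Differences between the hormones were measured as ratios within each library, which do not depend on how libraries were scaled. In each of the 6 possible pairs the log2 ratio did not overlap between groups. Every exact permutation test gave p = 0.1 (two-sided, Benjamini-Hochberg adjusted p = 0.1 over the 6 pairs), the smallest possible. The lack of overlap says little about the hormones, since 98.4% of the single genes tested did not overlap either. The share over other pairs of genes was not computed, and the 6 ratios derive from the same fold changes and are not independent. The ratio of Gdf15 to Fgf21 moved most, with a log2 value of 3.34 ± 0.08 in lidocaine and 1.12 ± 0.13 in control libraries (SD, n = 3 each), a difference of 2.22 ± 0.09 (SE). The ratio of Gdf15 to Adm differed by 1.69 ± 0.14, and that of Stc2 to Adm by 1.00 ± 0.14 (SE, n = 3 per group). Gdf15 and Stc2 were closer to each other, with a difference of 0.69 ± 0.11 (SE, n = 3 per group). The smallest difference was that of Fgf21 to Adm, at −0.53 ± 0.17, and that of Fgf21 to Stc2 was −1.53 ± 0.06 (SE, n = 3 per group).

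Levels of different genes were compared as FPKM, which divides by gene length. In the lidocaine libraries Gdf15 was at 31.2 ± 0.53 FPKM, Adm at 26.9 ± 3.11, Stc2 at 15.0 ± 1.05 and Fgf21 at 4.43 ± 0.26 (SD, n = 3 each). In the control libraries Adm led at 6.65 ± 0.48 FPKM, followed by Gdf15 at 2.39 ± 0.36, Stc2 at 1.87 ± 0.40 and Fgf21 at 1.59 ± 0.35 (SD, n = 3 each). The order was the same in the 3 libraries of each group, and between the groups Gdf15 and Adm changed places. The FPKM ratio of Gdf15 to Adm was 1.02 to 1.30 in lidocaine and 0.33 to 0.41 in control libraries. In lidocaine replicate 3 the levels were nearly equal, at 30.9 FPKM for Gdf15 and 30.4 for Adm. Across the controls the ranges of Gdf15 and Stc2 overlapped, as did those of Stc2 and Fgf21, although within each control library the order held. The FPKM ratio of Gdf15 to Stc2 was 1.14 to 1.44 in control libraries, and that of Fgf21 to Stc2 was 0.81 to 0.89.

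**Figure D3:**
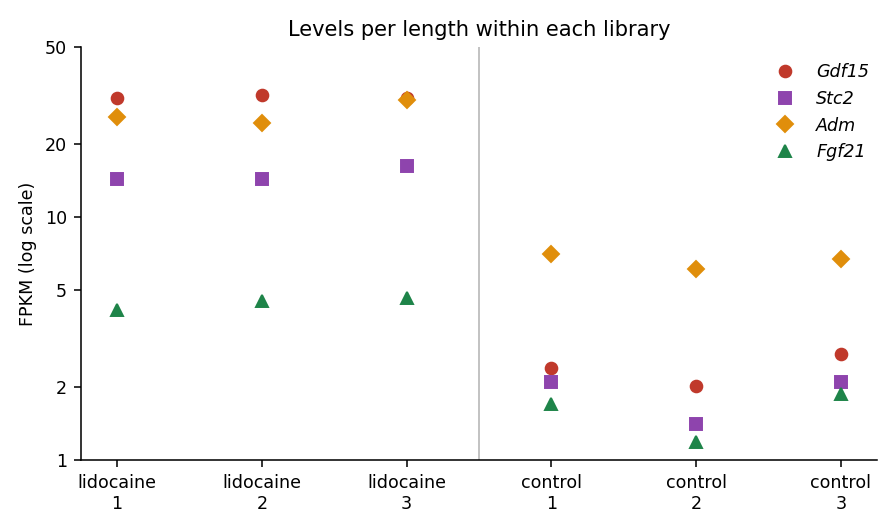
FPKM of the 4 hormone transcripts (vertical axis, log scale) in each lidocaine and control library (horizontal axis). Gdf15 is the highest in the 3 lidocaine libraries and Adm the highest in the 3 control libraries, where Gdf15, Stc2 and Fgf21 lie between 1.19 and 2.74 FPKM.

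Within the control group replicate 2 had the lowest value of each of the 4 hormones, while replicates 1 and 3 had no common order. That library had the lowest relative depth, 0.845, against 0.997 to 1.15 for the other controls. Relative depth here is the inverse of the authors' scaling factor and not a count of sequenced reads. The coefficient of variation among controls was 15.2% for Gdf15, 21.4% for Stc2, 7.43% for Adm and 22.6% for Fgf21. Counting alone gives 9.83% for Gdf15, 8.58% for Stc2, 4.76% for Adm and 14.7% for Fgf21. Without control replicate 2 the log2 fold changes were 3.56 for Gdf15, 2.80 for Stc2, 1.93 for Adm and 1.26 for Fgf21, and all 4 still passed (limma, Benjamini-Hochberg). In that fit 1777 of the 1851 genes tested passed. Among the lidocaine libraries Gdf15 varied by 1.51%, less than the 2.68% of counting alone, whereas Adm varied by 11.9% where counting gives 2.34%. Whether depth had a part in the low values of control replicate 2 was not tested.

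The closest relatives of 2 of the hormones rose as well. Adm2, or intermedin, which shares receptors with adrenomedullin, had 114, 133 and 127 normalized reads in the lidocaine libraries, against 18.3, 14.2 and 17.0 in the control libraries. On the log2 scale the change was 2.85 ± 0.22 (SE, n = 3 per group; adjusted p = 8.66e-07, limma), against 1.99 for Adm. Its level per length was lower than that of Adm, at 2.52 ± 0.19 FPKM in lidocaine and 0.31 ± 0.04 in control (SD, n = 3 each). Stc1, the other stanniocalcin, averaged 2694 ± 235 normalized reads in lidocaine and 974 ± 40.8 in control (SD, n = 3 each). On the log2 scale the change was 1.46 ± 0.07 (SE; adjusted p = 2.63e-08, limma), against 2.99 for Stc2. Per length, Stc1 at 14.6 ± 1.22 FPKM and Stc2 at 15.0 ± 1.05 differed by less than their spread in lidocaine, while controls held 5.20 ± 0.22 FPKM of Stc1 and 1.87 ± 0.40 of Stc2 (SD, n = 3 each).

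Of a list of 35 relatives of the hormones (GDFs, FGFs, stanniocalcin and calcitonin peptides), 5 were in the tables and 3 passed the filter on low values, Adm2, Stc1 and Gdf6. Gdf6, a BMP-like ligand, passed only through its lidocaine libraries and so had to differ, with 24.0, 29.0 and 36.1 normalized reads in lidocaine and 14.8, 5.92 and 0 in control libraries. Gdf3 and Gdf5, whose means were higher in control, were below the filter and were not tested. Gdf3 averaged 1.00 normalized reads in lidocaine and 7.80 in control, and Gdf5 3.86 in lidocaine and 14.0 in control. No FGF ligand of that list, which did not include Fgf15, was among the deposited genes.

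The receptors and extracellular partners of the hormones went mostly the other way. Of 16 such genes 8 were in the tables, 7 of them lower and 1 higher with lidocaine, with a median log2 fold change of −1.32, close to the −1.25 over all genes tested, of which 68.6% were lower. In bulk samples fewer cells of a type and less RNA per cell cannot be told apart. Gfral, Ret, Klb, Fgfr1, Fgfr2, Ramp2, Ramp3 and Pappa were not among the listed genes, so the main receptors of GDF15 and FGF21 were not analysed here.

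On the adrenomedullin side, Calcrl, the receptor protein itself, had 215, 201 and 297 normalized reads in lidocaine, against 532, 572 and 452 in control libraries. Its log2 fold change was −1.14 ± 0.15 (SE, n = 3 per group; adjusted p = 6.27e-05, limma with Benjamini-Hochberg adjustment), and under TMM and the median of ratios the sign turned (0.12 and 0.05). Ackr3, an atypical receptor that removes adrenomedullin and CXCL12 from the surroundings, averaged 420 ± 45.1 normalized reads in lidocaine and 1292 ± 8.68 in control (SD, n = 3 each). It fell by 1.63 on the log2 scale with the authors' scaling, and its value under TMM was −0.37. Ramp1, which with Calcrl forms the receptor of the neuropeptide CGRP, averaged 19.3 ± 5.94 normalized reads in lidocaine and 49.8 ± 8.55 in control (SD, n = 3 each). Within libraries the FPKM ratio of Adm to Calcrl was 25.9 ± 2.35 in lidocaine and 2.99 ± 0.48 in control, and that of Adm to Ackr3 was 5.97 ± 0.21 in lidocaine and 0.49 ± 0.03 in control (SD, n = 3 each). Adm thus exceeded Ackr3 per length in lidocaine and was below it in control, whichever scaling was used.

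On the stanniocalcin side, Igfbp4 and Igfbp5, which are among the IGF-binding proteins that pappalysins cleave, went in opposite directions. Igfbp3, another pappalysin substrate, was not on the list and had a log2 fold change of −1.45 with the authors' scaling (adjusted p = 1.03e-08, limma). Igfbp4 averaged 1014 ± 35.9 normalized reads in lidocaine and 5281 ± 179 in control (SD, n = 3 each), which is 5.21-fold lower (adjusted p = 1.63e-10, limma). Igfbp5 averaged 210284 ± 8659 normalized reads in lidocaine and 85268 ± 3142 in control (SD, n = 3 each), which is 2.47-fold higher (adjusted p = 1.28e-09, limma). Pappa2, the pappalysin that was listed, fell to 138 ± 25.2 normalized reads in lidocaine, against 334 ± 10.9 in control (SD, n = 3 each), although under TMM its log2 fold change was only −0.04. The FPKM ratio of Stc2 to Pappa2 was 50.9 ± 6.79 in lidocaine and 2.62 ± 0.64 in control, and that of Stc2 to Igfbp4 was 1.55 ± 0.10 in lidocaine and 0.038 ± 0.009 in control (SD, n = 3 each). The FPKM ratio of Stc2 to Igfbp5 was 0.020 ± 0.002 in lidocaine and 0.0063 ± 0.0014 in control (SD, n = 3 each), so Stc2 stayed far below Igfbp5. The ratios of Stc2 to Pappa2 and to Igfbp4 had to stand apart, because these genes were selected as changed in opposite directions on these libraries. The same holds for the ratios of Adm to Calcrl and Ackr3 above and of Fgf21 to Fgfr3 below. The ratio to Igfbp5, which rose as Stc2 did, differed between the groups by more than the spread of its libraries.

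On the FGF21 side, the FGF receptors Fgfr3 and Fgfr4 were listed at low levels. Fgfr3 averaged 46.4 ± 3.58 normalized reads in lidocaine and 108 ± 11.5 in control (SD, n = 3 each). Its log2 value was −1.20 with the authors' scaling and 0.04 under TMM. Fgfr4 averaged 13.7 ± 4.54 normalized reads in lidocaine and 39.8 ± 0.63 in control (SD, n = 3 each), or −1.52 on the log2 scale. The FPKM ratio of Fgf21 to Fgfr3 was 15.6 to 18.6 in lidocaine and 1.73 to 3.34 in control libraries.

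**Figure D4:**
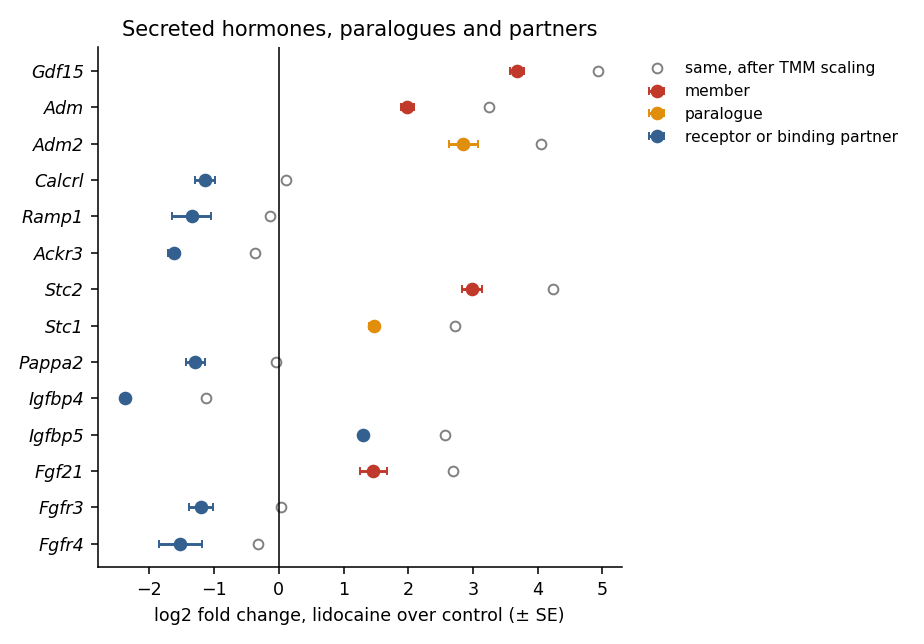
Log2 fold change of lidocaine over control (horizontal axis, bars ± SE from limma, n = 3 per group) for the 4 hormones (red), the related ligands Adm2 and Stc1 (orange) and 8 receptors or binding partners (blue). Grey circles give the same after TMM scaling, where Calcrl at 0.12 and Fgfr3 at 0.04 lie above 0 and Igfbp4 stays below.

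Genes of stress programmes were counted from lists that leave out the 4 hormones. Some of these programmes are known from other cell types to act on the hormones, and whether any did so here was not tested. Of 26 ATF4 and integrated stress response genes 11 were in the tables, and all 11 were higher with lidocaine, by a median of 1.30 on the log2 scale. Of all genes tested 30.9% were higher, with a median of 1.38 among those that rose. The enzyme gene Chac1, whose product degrades glutathione, averaged 6869 ± 118 normalized reads in lidocaine and 1290.2 ± 53.2 in control (SD, n = 3 each). Sesn2, an inhibitor of mTORC1, was 3.18-fold higher, Slc7a11, the cystine and glutamate exchanger, 9.31-fold higher and Mthfd2, a mitochondrial folate enzyme, 2.06-fold higher. The log2 fold change of Gdf15, 3.68, was above that of each of the 11 genes, of which Slc7a11 had the highest at 3.22, and that of Stc2 was above all but Slc7a11. No test of these differences was made. Of 16 unfolded protein response genes 2 were listed, Herpud1 (2.76-fold higher) and Ern1, the sensor IRE1 (2.01-fold higher). Of 12 p53 genes 2 were listed, the kinase gene Plk3 (2.72-fold higher) and Mdm2 (2.03-fold higher).

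Of 21 hypoxia genes 7 were in the tables, 6 of them higher and 1 lower with lidocaine, with a median log2 fold change of 1.19. Over all genes tested 30.9% were higher and 68.6% lower, and the median was −1.25. The glycolytic genes Hk2 and Ldha were 3.40-fold and 2.02-fold higher and the glucose transporter gene Slc2a1 2.28-fold higher. The lower one was Epas1, which encodes the oxygen-regulated factor HIF-2 alpha, at 8104 ± 283 normalized reads in lidocaine and 18661 ± 442 in control (SD, n = 3 each). Its log2 value of −1.20 became 0.05 after TMM scaling. The highest of the 7 was Hk2 at 1.77, against 1.99 for Adm.

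Of 9 genes of PPARA and the fasting response 4 were in the tables, 1 higher and 3 lower with lidocaine (median log2 fold change −2.14). Over all genes tested 30.9% were higher and 68.6% lower, with a median of −1.25. Ppara itself had 309, 309.7 and 272 normalized reads in lidocaine, against 130, 97.1 and 90.2 in control libraries, which is 2.82-fold higher (adjusted p = 9.21e-06, limma). Angptl4, an inhibitor of lipoprotein lipase, was 6.03-fold lower and Pdk4, a pyruvate dehydrogenase kinase, 3.23-fold lower. The log2 values of Angptl4 and Pdk4, known PPARA targets, were below 0 under each of the 4 scalings used, and those of Ppara and Fgf21 above 0. Of these scalings, TMM and the median of ratios rest on an assumption that is not met here. Whether PPARA had a part in the rise of Fgf21 was not tested.

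Other secreted stress peptides and cytokines moved in both directions. Of 16 such genes 7 were in the tables, 5 higher and 2 lower with lidocaine (median log2 fold change 1.43), against 30.9% higher and 68.6% lower over all genes tested (median −1.25). Gdnf and Bdnf, neurotrophic factors of sensory neurons, were 3.93-fold and 2.69-fold higher, and the cytokine Il6 2.94-fold higher. The related peptides Ucn (urocortin) and Crh (corticotropin-releasing hormone), which share receptors, went opposite ways. Ucn averaged 1095 ± 91.1 normalized reads in lidocaine and 328 ± 4.02 in control, and Crh 41.6 ± 6.91 in lidocaine and 164 ± 26.2 in control (SD, n = 3 each).

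The genes whose profile lay nearest to each hormone were found by the Euclidean distance over the 6 libraries, after centring log2 values on the control mean. Nearest to Gdf15 were Hcar2, a receptor of ketone bodies and niacin (0.45 log2 units), the chromatin protein gene Hmga2 (0.83) and Myo3a (0.98). Hcar2 averaged 65.9 normalized reads in lidocaine and 4.89 in control, so it passed the filter on low values only through its lidocaine libraries. Nearest to Stc2 were Adm2 (0.39), the cyclin gene Ccnd1 (0.61) and Hs3st1 (0.61), a heparan sulfate sulfotransferase. Nearest to Adm were Gdnf (0.19), Phlda1 (0.23) and the guanylate cyclase gene Gucy2c (0.29). Nearest to Fgf21 were LOC500475 (0.21), Xkr5 (0.33) and the chemokine receptor gene Ccr1 (0.34). With 3 libraries per group the distance mostly reflects the size of the change.

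In the promoter windows printed above, the motifs searched were TGATGNAA (a composite C/EBP-ATF element), ACGTG or GCGTG (the hypoxia element core), TGACGTCA (CRE), TGANTCA (AP-1), TGACNNNGC (the antioxidant element core) and the ER stress element, on both strands. The Fgf21 window held the C/EBP-ATF composite as TTGCATCA at −143 to −136 from the start, counted as −1 for the base before it. This motif occurred in 3.98% of 33469 rat promoter windows of the same length. The same window held 3 hypoxia core matches, at −76 to −72, −54 to −50 and −53 to −49, the last 2 being the 2 strands of 1 CACGTG site, and 41.6% of all windows held at least 1. The Gdf15 and Stc2 windows held the antioxidant core, which occurred in 12.1% of windows, at −85 to −77 and −2 to 7 in Gdf15 and at −178 to −170 in Stc2. The matched letters GCCTGGTCA were the same in both genes. The Adm window and that of the upstream Gdf15 start (chr16:18838186-18838485) held none of the 6 motifs, and the Adm2 window held 1 hypoxia core. A match says only that the letters are present, and no match only that they are absent from these 300 bases.

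**Figure D5:**
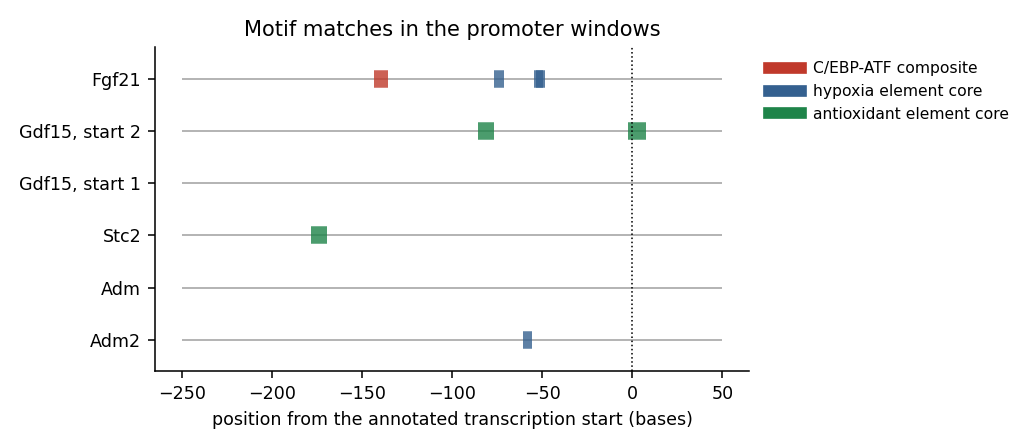
Positions of motif matches (coloured blocks) from the annotated start (horizontal axis, bases) in the RefSeq promoter windows of the 4 hormones, both starts of Gdf15, and Adm2. Fgf21 holds the C/EBP-ATF composite and 3 hypoxia core matches, Gdf15 (downstream start) 2 and Stc2 1 antioxidant core, and Adm none.

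The annotation and the cell makeup bear on how these values can be read. In GRCr8 the gene Lrrc25 overlaps Gdf15 from the opposite strand. Without stated strand use, reads from the stretch that both genes share cannot be assigned to either. Whether rn6 holds the same overlap was not examined. Lrrc25 averaged 46.7 ± 22.0 normalized reads in lidocaine and 278 ± 26.8 in control (SD, n = 3 each), opposite in direction to Gdf15. No gene overlaps Stc2, Adm or Fgf21 there. Of 12 markers of sensory neurons only Elavl4 was in the tables, 2.00-fold lower with lidocaine, and turned higher under TMM (0.26). Of 11 macrophage markers 10 were listed and all were lower, with a summed level of 1188 to 1295 normalized reads in lidocaine and 10362 to 10849 in control libraries, and Cd163 and Cx3cr1 were at 0 in a lidocaine library. The 4 listed of 7 fibroblast markers summed to 26065 to 26548 normalized reads in lidocaine and 102631 to 112200 in control libraries. The 4 of 10 Schwann cell markers summed to 7805 to 8034 in lidocaine and 30347 to 31288 in control, and the 3 of 7 satellite glia markers to 3608 to 3770 in lidocaine and 11364 to 11721 in control. The 7 of 8 endothelial and mural markers summed to 3686 to 4017 in lidocaine and 10019 to 11034 in control, with Acta2 at 0 in a lidocaine library. Cd163, Cx3cr1 and Acta2 passed the filter on low values only through their control libraries and so had to be lower. Every listed marker was lower with the authors' scaling, as were 68.6% of all genes tested, and under TMM Elavl4 and Pdgfrb (0.21) were not. The part of this shift in the rises of the 4 hormones was not tested.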

How the data were processed

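RNA was sequenced from 3 lidocaine and 3 control libraries, grouped by the treatment label. Bowtie 0.12.2, DESeq2 and the build rn6 (Rnor_6.0) are named, without roles, per the submitters' processing notes. Not given in the sources used here are annotation, counting tool and strand setting. Deposited by the authors were log2 values of normalized reads plus 1 for 2125 genes, called significant per the file headers. In the deposited comparison of the authors their log2 fold changes were at least 1 in size and the largest p-value was 0.0499. They also deposited FPKM values of the same genes, whose group value for lidocaine entered no comparison.

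Undoing the log2 step gave whole multiples of 1 factor per library for all 12750 values (tolerance 0.02 reads), so reads were recovered: 2453051 to 3592141 in the listed genes per library (total depth is unknown). Depth relative to lidocaine replicate 1, taken as the inverse of the factor of each library, was 0.997 to 1.07 in lidocaine and 0.845 to 1.15 in control libraries. No libraries of a group agreed within sampling noise (chi-square per degree of freedom 3.26 to 8.38).

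Genes averaging 10 or more normalized reads (1851) were tested by limma 3.58.1 in R 4.3.3 (trend in the variance, two-sided, Benjamini-Hochberg over all genes tested, threshold 0.05), a step that was first tested on simulated data. The deposited log2 values, with their pseudocount of 1, entered as they were. Fold changes are on that scale and too small for low genes. Count models were not run, since the tables hold log2 values of selected genes only. Ratios within libraries were compared by exact permutation tests, and intervals cover counting error only. Means and SDs are over 3 libraries.

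The 4 hormones and the gene lists were chosen with earlier results of these data known. Named from each list were at most 4 called genes, taken by lowest adjusted p, and at most 2 uncalled ones; as most like a hormone, the 3 nearest genes. Calcrl, Ramp1, Fgfr3, Fgfr4, Igfbp3, Crh, Lrrc25, Pdgfrb and the markers at 0, and the ratios to receptors and partners are outside it, picked with their values known. Promoter sequences are RefSeq's (GRCr8), and 1 to 2 windows were found for each hormone. Other settings tried were the pseudocount, filter, scaling, unit (FPKM), variance trend, threshold and a replicate block, and leaving out single libraries. A listed gene is not reported here.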

Additional observations from a re-analysis of the deposited data

Results flagged for a closer look

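In the FPKM table the authors' own group value for lidocaine, a column that entered no comparison, lay above the mean of the 3 lidocaine libraries for each of the 4 hormones and above the control level. The group value was 34.2 FPKM for Gdf15, against a mean of 31.2 over its libraries, and 18.3 for Stc2, against 15.0. It was 39.9 FPKM for Adm, against a mean of 26.9, and 6.17 for Fgf21, against 4.43. The excess thus ran from 1.10 times the mean for Gdf15 to 1.48 times for Adm, and the group values put Adm above Gdf15, the reverse of the order in each lidocaine library. The control group value equalled the mean of its libraries for all 4. What the lidocaine value holds was not tested.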

How the results depend on the processing

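All 4 hormones stayed higher with lidocaine and past the threshold in each alternative fit that gave them a value (limma, Benjamini-Hochberg). This is a weak check, since 99.5% of the 1851 genes tested passed in the main fit. There were 16 such fits for Gdf15, Stc2 and Adm and 15 for Fgf21, which gave 63 values over the 4 genes. The 54 recomputed ratios between hormones kept their direction. Fgf21, with a mean below 100 normalized reads, has no value under the stricter filter. The number of genes called, 1841, became 1068 with a minimum mean of 100, where fewer genes were tested. Of the same 1851 genes, 1120 were called under TMM and 1142 under the median of ratios, both computed on the listed genes alone. Adjusting as if over all 47357 reference genes left the adjusted p of Fgf21 at 0.00225, the highest of the 4. With a library left out in turn, the calls numbered 1767 to 1806, and the log2 fold change was 3.56 to 3.78 for Gdf15, 2.80 to 3.08 for Stc2, 1.89 to 2.05 for Adm and 1.26 to 1.59 for Fgf21. No pairing by replicate number was seen: deviations of same-numbered libraries correlated at −0.028, 0.009 and 0.058 over genes. Those of differently numbered libraries correlated at −0.057 to 0.050. Such values cannot show that the cultures were unpaired. With the number as a replicate block 1842 genes were called and the 4 calls stood, with an adjusted p of 9.84e-05 for Fgf21 (limma). Depth limits Fgf21 most, whose control libraries held 31 to 60 reads.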
